A study of Mus musculus with 6 samples.

Results

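Zinc transporters and metallothioneins set how much free zinc a cell holds and where it is kept, and 9 of their genes were followed in primary cultures of mouse pancreatic acinar cells. The 9 genes were chosen by symbol, as Slc30a1, Slc30a2, Slc30a5, Slc30a7, Slc30a9, Slc39a7, Slc39a14, Mt1 and Mt2, out of 23237 distinct symbols in the count tables. Each stood on a single row, and all 9 passed the filter on low counts. The 3 cKO libraries came from cells with a conditional knock-out of Esrrg, the gene of the orphan nuclear receptor ERRγ, and carry the genotype label ERRgamma -/-. They were compared with 3 control libraries labelled wild type. Both groups were of strain C57BL/6J, and all cells were kept in Waymouth's medium with serum, antibiotics, a trypsin inhibitor and recombinant human epidermal growth factor. The Cre driver, the deleted part, the age and sex of the animals, the time in culture and the origin of the replicates from 1 or several animals were not stated in the labels. All p-values thus reflect differences among these 6 libraries, and that spread may be technical.

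Most proteins of the Slc30 (ZnT) family carry zinc out of the cytosol, either across the plasma membrane or into vesicles and organelles. Slc30a9 is instead linked to zinc export from mitochondria. Proteins of the Slc39 (ZIP) family bring zinc into the cytosol. Metallothioneins are small cysteine-rich proteins that bind zinc and copper, and the transcription factor MTF-1 switches on Mt1, Mt2 and Slc30a1 when cytosolic zinc rises. The exocrine pancreas is rich in zinc: acinar cells store it in zymogen granules, secrete it with the digestive enzymes, and make zinc-dependent carboxypeptidases.

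The upstream sequences of the 3 genes known as MTF-1 targets are shown because all 3 were among the members called below. They are RefSeq sequences of GRCm38.p6, plus strand, covering the 250 bases before the start that RefSeq annotates, at chr8:94172368-94172617 for Mt2, chr8:94178839-94179088 for Mt1 and chr1:191906531-191906780 for Slc30a1. GENCODE M21 places the starts elsewhere, at 94172664 for Mt2, 94179082 for Mt1 and 191906767 for Slc30a1. The last of these and that of Mt1 lie inside the printed parts. Capitals mark matches to the core of the metal response element, searched as TGCACNC or TGCGCNC on both strands.
Mt2: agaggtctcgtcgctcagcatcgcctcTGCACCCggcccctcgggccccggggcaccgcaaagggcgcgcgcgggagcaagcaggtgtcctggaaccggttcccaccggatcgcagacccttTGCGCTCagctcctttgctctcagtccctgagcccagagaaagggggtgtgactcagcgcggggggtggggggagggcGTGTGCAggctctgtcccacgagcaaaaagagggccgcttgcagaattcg
Mt1: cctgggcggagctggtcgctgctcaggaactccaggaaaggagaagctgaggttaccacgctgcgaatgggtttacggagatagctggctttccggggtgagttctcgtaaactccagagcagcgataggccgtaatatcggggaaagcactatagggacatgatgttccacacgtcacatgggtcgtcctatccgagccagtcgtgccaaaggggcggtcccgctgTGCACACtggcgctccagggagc
Slc30a1: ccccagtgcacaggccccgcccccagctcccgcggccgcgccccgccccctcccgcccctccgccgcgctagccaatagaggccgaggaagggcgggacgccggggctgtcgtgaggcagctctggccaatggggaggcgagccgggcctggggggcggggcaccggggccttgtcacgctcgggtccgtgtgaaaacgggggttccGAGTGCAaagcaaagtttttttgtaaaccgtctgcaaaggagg
In the full window of 300 bases, which runs to 50 bases after the start, Mt2 held 4 matches, Mt1 held 3 and Slc30a1 held 2. Of these, 3, 1 and 1 lie in the printed parts. Of 32851 such windows of all genes, 25.7% held at least 1 match, 1.97% held 3 or more and 0.517% held 4 or more. Windows were on file for 8 of the 9 members, all except Slc39a14. Slc30a2 had 2 matches, Slc30a5 had 1, and Slc30a7, Slc30a9 and Slc39a7 had 0. The core of the ERR response element, searched as TNAAGGTCA on both strands, was in 1.28% of all windows and in 0 of the 8 members' windows. A match is a description of these letters and says nothing on binding.

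Levels are 3' tag counts per M counts (CPM), with 1 tag per transcript and no division by length. The scale decides the direction of these results. Library totals were 15.2 M to 17.0 M counts in cKO and 23.0 M to 25.2 M in control (M, mega). Scaling by TMM assumes that most genes do not change. The effective sizes after it were 33.15 M to 59.96 M in cKO and 7.52 M to 8.49 M in control. On library totals the fold changes of all tested genes lay higher by a median of 3.26 (log2), and 96.4% of genes were called higher in cKO. The 7 acinar markers took 52660 to 163400 CPM of the library total in cKO and 278900 to 290300 CPM in control. On the TMM scale the 7 fibroblast or stellate markers summed to 3553 to 5070 CPM in cKO and 723 to 817 CPM in control, and the 7 macrophage or monocyte markers to 181 to 392 CPM in cKO and 63.5 to 74.7 CPM in control. In edgeR's quasi-likelihood test all 7 acinar markers fell, and 6 of 7 fibroblast and 7 of 7 macrophage markers rose. The part of this cell mixture in the zinc gene results was not tested. In such bulk samples, fewer acinar cells and less RNA per acinar cell cannot be told apart. Replicate 2 of cKO stood nearer to the controls, with 163400 CPM of acinar markers. Esrrg had 0, 9 and 1 counts in cKO and 0 in each control library, so it gives no check of the genotype.

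On the TMM scale 5 of the 9 genes fell in cKO (Mt1, Mt2, Slc30a1, Slc30a2 and Slc30a9), 0 rose and 4 did not pass (edgeR quasi-likelihood test, Benjamini-Hochberg adjusted p under 0.05), whereas on library totals all 9 rose. Of all 13132 tested genes, 44.7% were called on the TMM scale, 20.7% as lower and 24.0% as higher. On library totals 96.4% of them were called higher and 0.404% lower. The median log2 fold change of the 9 genes was -0.90 on the TMM scale, against 0.10 for all tested genes, and 2.38 on library totals, against 3.37 for all tested genes. The 9 genes thus had a lower median than the tested genes at large. The scales differ mainly by a shift of all genes (median 3.26, log2), so they do not give separate comparisons. The cKO libraries lay below all control libraries, with no overlap, for the same 5 genes on the TMM scale, a pattern that 25.4% of all tested genes had. In either direction 56.2% of all tested genes had groups that did not overlap.

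**Figure D1:**
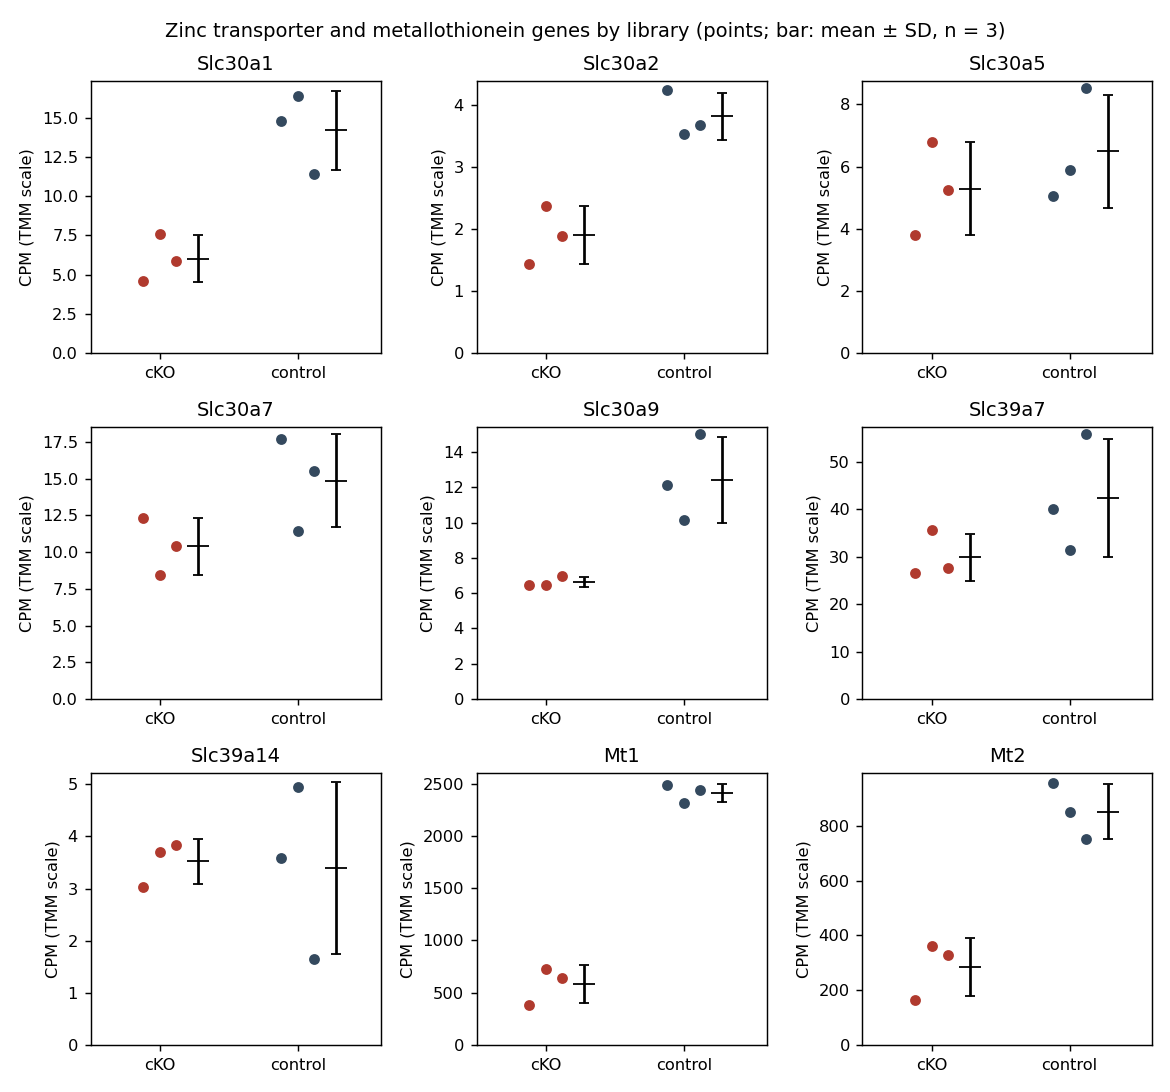
Level of each of the 9 genes in each library, in CPM on the TMM scale, with cKO left and control right; points are libraries and bars are mean ± SD (n = 3). The groups are apart for Slc30a1, Slc30a2, Slc30a9, Mt1 and Mt2 and overlap for Slc30a5, Slc30a7, Slc39a7 and Slc39a14.

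The metallothionein genes had the largest fold changes among the 9 on the TMM scale. Mt1 and Mt2 are neighbours on chromosome 8 (GRCm38, GENCODE M21; Mt2 at 94172664 to 94173568 and Mt1 at 94179082 to 94180327, both on the plus strand), 5513 bases apart. Mt1 stood at 383, 728 and 643 CPM in cKO replicates 1, 2 and 3, and at 2487, 2320 and 2439 CPM in control replicates 1, 2 and 3, on the TMM scale. Every cKO library was well below every control library, and the cKO libraries were more spread. The log2 fold change of Mt1 was -2.05 ± 0.31 (SE; adjusted p = 8.84e-05), a 4.13-fold lower level in cKO on this scale. As a share of library totals Mt1 was higher in cKO, at 1499, 1423 and 2357 CPM, than in control, at 765, 782 and 835 CPM, a 2.22-fold rise (adjusted p = 0.00286).

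Mt2 stood at 164, 362 and 330 CPM in cKO and at 956, 851 and 752 CPM in control on the TMM scale. The groups did not overlap, and cKO replicate 1 was lowest for Mt2 as it was for Mt1. The log2 fold change of Mt2 was -1.58 ± 0.28 (SE; adjusted p = 0.000316). On library totals it was 641, 707 and 1210 CPM in cKO and 294, 287 and 257 CPM in control (log2 fold change 1.61, adjusted p = 1.99e-05). No 50-base word of the last 400 bases of the Mt1 or the Mt2 transcript occurred in a transcript of another gene, so a tag of that length there can be assigned. Gm45774, on the opposite strand of Mt2, is not a row of the count tables, and whether the counting used the strand is not stated.

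Together Mt1 and Mt2 made up 0.214%, 0.213% and 0.357% of all counts in cKO, and 0.106%, 0.107% and 0.109% in control. On the TMM scale their sum was 870 ± 286 CPM in cKO and 3268 ± 152 CPM in control (SD, n = 3 each; exact 2-sided permutation p = 0.1 on log2 values, the smallest that 3 against 3 allows). The direction of the summed level was therefore set by the scale, with a log2 difference of -1.97 on the TMM scale and 1.24 on library totals.

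**Figure D2:**
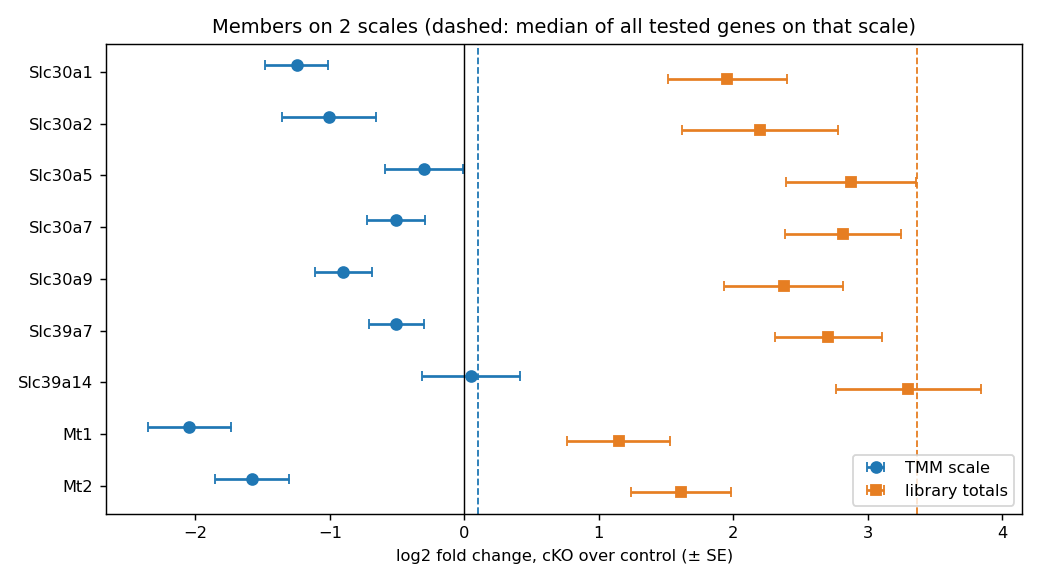
Log2 fold change of cKO over control (± SE) for the 9 genes, with circles on the TMM scale and squares on library totals; dashed lines mark the medians of all tested genes, 0.10 and 3.37. All genes but Slc39a14 change sign between the scales. Mt1 and Mt2 lie lowest on both, and the scales differ mainly by a shift of all genes.

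Ratios of counts within a library do not depend on the scale, and 4 were formed after the values had been seen. Their genes were picked with the fold changes known, so each ratio largely restates those fold changes and its p-value is descriptive. How many other gene pairs would separate the groups likewise was not counted. Mt1 had 2.34, 2.01 and 1.95 counts per Mt2 count in cKO and 2.60, 2.73 and 3.24 in control. All cKO ratios were lower, with means of 2.10 ± 0.209 in cKO and 2.86 ± 0.339 in control (SD, n = 3 each; exact 2-sided permutation p = 0.1, the smallest possible). The scaling of libraries does not enter this ratio, and a test of 3 against 3 cannot pass 0.05. Mt1 and Mt2 together had 119, 144 and 166 counts per Slc30a1 count in cKO and 233, 194 and 279 in control, again without overlap (exact permutation p = 0.1). Per 1000 counts of Cpa1, the gene of a pancreatic carboxypeptidase that is itself a zinc enzyme, Mt1 and Mt2 together had 346, 126 and 408 counts in cKO and 45.1, 47.5 and 44.6 in control. The geometric mean of this ratio was 5.70-fold higher in cKO (exact permutation p = 0.1). Cpa1 itself fell on both scales, and averaged 10630 ± 5611 CPM of library totals in cKO and 23500 ± 986 CPM in control (SD, n = 3 each).

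**Figure D3:**
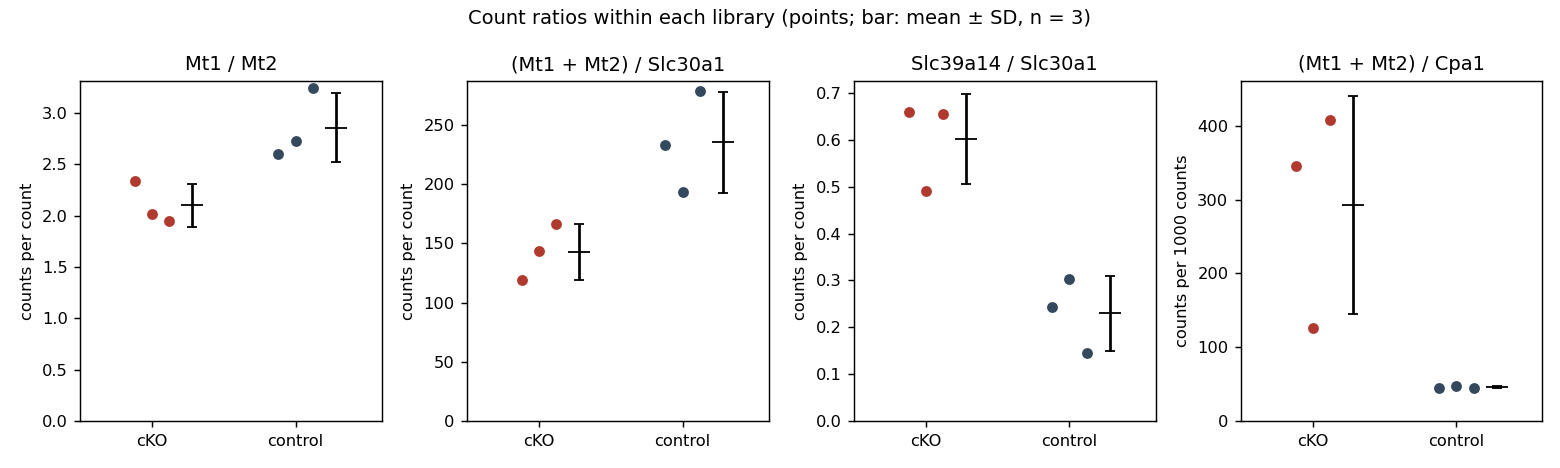
Ratios of counts within each library (counts per count, and counts per 1000 counts for Cpa1), with cKO left and control right; points are libraries and bars are mean ± SD (n = 3). In each of the 4 panels the 3 cKO libraries lie on one side of the 3 control libraries. The ratios were chosen after the values had been seen.

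Among the exporters, Slc30a1 encodes ZnT1, the carrier that moves zinc out across the plasma membrane (chromosome 1, 191906767 to 191913247, plus strand). It had 273, 251 and 351 counts in cKO and 111, 139 and 90 in control, which on the TMM scale were 4.6, 7.57 and 5.85 CPM in cKO and 14.8, 16.4 and 11.4 CPM in control. On that scale each cKO library was below each control library, although the raw counts were higher in cKO. The log2 fold change of Slc30a1 was -1.25 ± 0.23 (SE, with an edgeR adjusted p of 0.000533), and 1.96 on library totals. The annotation places 1700034H15Rik on the opposite strand of Slc30a1, outside its last 1000 bases where 3' tags are expected to lie.

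Slc30a2 encodes ZnT2, a vesicle transporter known in the pancreas for loading zinc into zymogen granules (chromosome 4, 134343181 to 134354484, plus strand). It stood at 1.45, 2.38 and 1.90 CPM in cKO and at 4.25, 3.53 and 3.68 CPM in control. These values rest on 79 to 114 counts in cKO and 29 to 32 in control. The groups did not overlap, and the log2 fold change was -1.01 ± 0.35 (SE; adjusted p = 0.029), against 2.20 on library totals. This is the least secure of the 5 calls, since it was lost without cKO replicate 1 (-0.83, adjusted p = 0.117), without cKO replicate 3 (adjusted p = 0.094), without control replicate 1 (-0.92, 0.0785) and without control replicate 3 (-1.03, 0.0556).

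Slc30a9, a ZnT family member linked to zinc export from mitochondria (chromosome 5, 67306955 to 67358443, plus strand), was uniform within cKO on the TMM scale only. It stood there at 6.49, 6.45 and 6.99 CPM in cKO and at 12.1, 10.1 and 14.99 CPM in control. On library totals the cKO values were 25.4, 12.6 and 25.6 CPM. The log2 fold change was -0.90 ± 0.21 (SE; adjusted p = 0.0029) on the TMM scale and 2.38 on library totals.

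Slc30a5 and Slc30a7 did not pass the test on the TMM scale. Slc30a5 encodes ZnT5, which works as a heterodimer with ZnT6 to supply zinc to enzymes that mature in the Golgi. It stood at 3.81, 6.79 and 5.25 CPM in cKO and at 5.05, 5.89 and 8.51 CPM in control, so that the groups overlapped (log2 fold change -0.30 ± 0.29, SE; edgeR adjusted p = 0.422). Slc30a7 encodes ZnT7, which acts in the same compartments as a homodimer. It stood at 12.3, 8.42 and 10.4 CPM in cKO and at 17.7, 11.4 and 15.5 CPM in control, with cKO replicate 1 above control replicate 2 (-0.51 ± 0.22, SE; adjusted p = 0.0663). It passed without control replicate 2 (-0.67, adjusted p = 0.0342) or without cKO replicate 1 (-0.65, 0.0368).

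Slc39a7 encodes ZIP7, which releases zinc from the endoplasmic reticulum into the cytosol and is needed for protein folding there (chromosome 17, 34028269 to 34031682, minus strand). It stood at 26.5, 35.6 and 27.5 CPM in cKO and at 40.0, 31.3 and 55.8 CPM in control. Replicate 2 of cKO was above replicate 2 of control, and the log2 fold change of -0.51 ± 0.20 (SE; edgeR adjusted p = 0.0555) did not pass. It passed without control replicate 2 (-0.68, adjusted p = 0.0259) or without cKO replicate 2 (-0.64, 0.00723). All 351 words of 50 bases in the last 400 bases of Slc39a7 also occur in the overlapping gene model Gm20427, which is not a row of the count tables.

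Slc39a14 encodes ZIP14, a plasma membrane importer of zinc, iron and manganese that is known to be induced by inflammatory cytokines in liver (chromosome 14, 70303469 to 70351425, minus strand). It was the only one of the 9 genes with a positive log2 fold change on the TMM scale, 0.05 ± 0.36 (SE; edgeR adjusted p = 0.928), which is far within its error. It stood at 3.03, 3.71 and 3.84 CPM in cKO and at 3.59, 4.95 and 1.65 CPM in control, and the control libraries held only 27, 42 and 13 counts. The fold change was -0.28 without control replicate 3 and 0.44 without control replicate 2, so its sign cannot be given. Per Slc30a1 count it had 0.659, 0.490 and 0.655 counts in cKO and 0.243, 0.302 and 0.144 in control. The ratio was higher in every cKO library than in any control library (2.71-fold by geometric means; exact 2-sided permutation p = 0.1, the smallest possible). It largely restates the lower TMM level of Slc30a1 beside a flat Slc39a14, both known when the ratio was chosen. The cKO libraries also held the higher fibroblast and macrophage marker levels given above, and their part in this ratio was not tested.

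The remaining genes of the families were taken whole, as a list of 21 that also holds Mtf1 and the vesicular zinc carrier gene Tmem163. Of these, 14 were tested, and on the TMM scale 2 rose, 7 fell and 5 did not pass, against 24.0% and 20.7% of all tested genes. The median was -0.67 on the TMM scale and 2.57 on library totals, against 0.10 and 3.37 for all tested genes. On library totals 13 rose and 0 fell, where 96.4% of all tested genes rose and 0.404% fell. With the 9 genes added, 5 of 8 tested Slc30 genes fell and 0 rose (median -0.88), whereas 4 of 12 tested Slc39 genes fell and 2 rose (median -0.11). Among the 5, the calls of Slc30a2 and Slc30a6 were lost when some single libraries were left out, so this count is not firm. The Slc39 genes ran from -2.66 to 2.68, a wider range than the Slc30 genes.

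Slc39a5 encodes ZIP5, an importer known from the basolateral membrane of pancreatic acinar and gut cells. It stood at 8.51, 26.03 and 10.02 CPM in cKO and at 102, 92.3 and 85.1 CPM in control on the TMM scale. The log2 fold change of Slc39a5, -2.66 ± 0.45 (SE; edgeR adjusted p = 0.00313), was the lowest of the tested zinc genes, and it was -3.32 without cKO replicate 2. On library totals it did not pass (0.40, adjusted p = 0.3). Slc39a11 (-2.10 ± 0.26, SE), Slc39a9 (-1.42 ± 0.17), Slc39a8 (-1.06 ± 0.29), Slc30a4 (-1.05 ± 0.24) and Mtf1 (-0.82 ± 0.19) also fell on the TMM scale, with adjusted p between 9.78e-06 and 0.00751, and all 5 rose on library totals. Mtf1, which encodes the zinc sensor MTF-1, stood at 13.8, 21.6 and 16.0 CPM in cKO and at 35.5, 28.2 and 26.9 CPM in control, with no overlap. Slc30a6, the gene of the ZnT5 partner, was close to the threshold (-0.87 ± 0.33, SE; adjusted p = 0.0467), and its call was lost without control replicate 2 or 3 or any 1 cKO library (0.0631 to 0.227). It was also lost with upper-quartile factors (edgeR adjusted p = 0.0521), no filter (0.0614), the replicate block (0.0604) and the DESeq2 Wald test (0.0516).

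Slc39a10 and Slc39a6, whose products ZIP10 and ZIP6 are close relatives and form a heterodimer, rose on both scales. Slc39a10 had 323, 133 and 361 counts in cKO and 12, 5 and 2 in control. It stood at 5.44, 4.01 and 6.02 CPM in cKO and at 1.59, 0.589 and 0.254 CPM in control, without overlap. The fold change of Slc39a10 on the log2 scale, 2.68 ± 0.47 (SE; edgeR adjusted p = 0.00031), became 3.59 without control replicate 1, so its size is uncertain. Slc39a6 stood at 8.64, 7.18 and 8.17 CPM in cKO and at 1.33, 4.83 and 3.17 CPM in control (1.35 ± 0.34, SE; adjusted p = 0.00471). Slc39a1 stood at 45.7 ± 7.0 CPM in cKO and 41.1 ± 5.68 CPM in control (SD, n = 3 each) and did not pass on the TMM scale (0.15 ± 0.17, SE; adjusted p = 0.484). Slc30a8, the transporter of insulin granules, had 15, 14 and 54 counts in cKO and 9, 6 and 3 in control and did not pass (-0.51 ± 0.71, SE; adjusted p = 0.59). Its fold change was -1.17 without cKO replicate 3. Mt3 had 6, 8 and 3 counts in cKO and 0, 1 and 0 in control, Mt4 had 0 in all 6 libraries, and neither was tested.

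**Figure D4:**
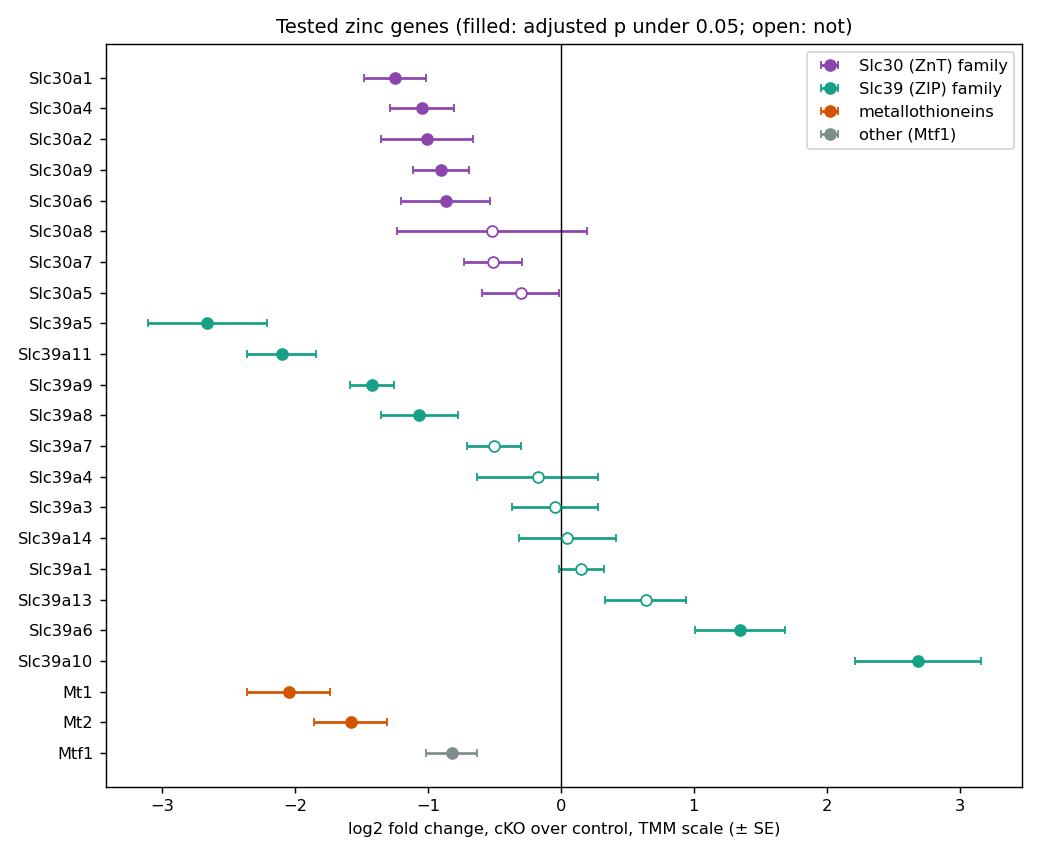
Log2 fold change of cKO over control on the TMM scale (± SE) for the 23 tested zinc genes by family; filled points passed adjusted p 0.05 in edgeR and open points did not. All 8 Slc30 genes lie left of 0, while the 12 Slc39 genes run from -2.66 to 2.68.

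Copper handling genes were followed because metallothioneins also bind copper. Of 14 listed genes 13 were tested, and on the TMM scale 3 rose and 6 fell (median -0.53), whereas on library totals all 13 rose. Of all tested genes 24.0% rose and 20.7% fell on the TMM scale (median 0.10), and 96.4% rose on library totals. The share of copper genes that rose was thus near that of all genes, whereas the share that fell on the TMM scale was higher. Atp7a, the copper pump of the secretory pathway, stood at 15.01, 12.3 and 16.4 CPM in cKO and at 2.79, 4.48 and 6.61 CPM in control (log2 fold change 1.65 ± 0.27, SE; edgeR adjusted p = 0.000159). The metalloreductase genes Steap3 (2.18 ± 0.35) and Steap4 (1.24 ± 0.26) also rose on both scales. The copper importer gene Slc31a1 (-0.79 ± 0.16), Slc31a2 (-1.19 ± 0.19) and Cox17 (-1.20 ± 0.20), whose product delivers copper to cytochrome c oxidase, fell on the TMM scale.

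The genes most like Mt1 across the 6 libraries, by Pearson's r of log2 CPM, were Saraf (r = 0.999), Gars (0.998) and Sephs2 (0.998). Those most like Mt2 were Acot13 (0.994), Psenen (0.993) and Iscu (0.993), and those most like Slc30a2 were Spint1 (0.999), Txn2 (0.998) and Mpc2 (0.998). These coefficients are descriptive, since all libraries share the split between the groups. Among 4268 genes compared, 1359 had r above 0.9 with Mt1, 1158 with Mt2 and 1263 with Slc30a2.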

How the data were processed

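RNA of 6 libraries was taken with Trizol, and 500 ng of each went into Lexogen QuantSeq libraries, per the labels' protocols. The deposited values are raw read counts by gene symbol, with a separate table for each library and no normalization by the authors. The submitters' processing notes name Bowtie2 and edgeR, with mm10 and GRCm38 as builds, whereas counting tool, annotation and strand setting are not stated. Each table held 23282 rows. Rows were kept with filterByExpr (minimum count 10, minimum total 15), scaled by TMM and tested in edgeR 4.0.16 (R 4.3.3) with its robust quasi-likelihood F test, with p-values Benjamini-Hochberg adjusted over 13132 rows and a threshold of 0.05. The SE is the log2 fold change divided by the square root of F. Log2 CPM used a prior count of 2. Single values and ratios were compared by an exact permutation test.

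Depth sets the floor: 3 counts, the limit that a count of 0 leaves, equal 0.119 to 0.198 CPM of library totals, by counting error only. On the TMM scale the same 3 counts equal 0.353 to 0.399 CPM in control and 0.05 to 0.0905 CPM in cKO. Replicates differed by more than sampling noise (chi-square over its degrees of freedom, 14.6 to 370). The test was checked on simulated data in which few genes changed and as many rose as fell. That check does not bear on the choice of scale. Alternatives were DESeq2 1.42.0, other scalings and filters, a replicate block and leaving out each library. The 9 genes and the lists were chosen with earlier results of these data known. Named were the 9 genes, genes of the zinc and copper lists, 3 genes most like Mt1, Mt2 and Slc30a2 (mean log2 CPM of at least 3), and Cpa1 and Esrrg. The ratios, the copper alternatives and the leave-one-out of the Mt1 to Mt2 ratio were chosen after seeing the data. Gene positions are from GENCODE M21 and upstream sequences from RefSeq.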

Additional observations from a re-analysis of the deposited data

How the results depend on the processing

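Library totals in place of TMM turned the sign of 8 of the 9 genes, giving log2 fold changes of 1.96 for Slc30a1, 2.20 for Slc30a2, 2.88 for Slc30a5, 2.82 for Slc30a7, 2.38 for Slc30a9, 2.71 for Slc39a7, 1.15 for Mt1 and 1.61 for Mt2, and 1.24 for the summed metallothionein level. On that scale 12707 genes were called in place of 5868 (12654 higher and 53 lower, against 3152 and 2716), with all 9 genes among them in place of 5, and 13 of the other zinc genes in place of 9. With the stricter filter of 10 CPM in 3 libraries, only 4183 genes were tested, and 2862 of them were called. Among these were 3 of the 5 members tested, 4 of 5 other zinc genes and 5 of 6 copper genes. The members removed by this filter were not tested. Slc39a14 turned sign without control replicate 3 (-0.28) and without cKO replicate 3 (-0.01), and reached 0.44 without control replicate 2.

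Leaving out 1 library at a time gave 4464 to 6240 called genes, 4 to 7 of the 9, 8 to 9 other zinc genes, 7 to 11 copper genes, and a summed metallothionein difference of -2.16 to -1.66. Mt1, Mt2, Slc30a1 and Slc30a9 kept their calls in each of these. The log2 ratio of Mt1 to Mt2 ran from -0.52 to -0.35 (-0.44 with all libraries). DESeq2 and its size factors, upper-quartile factors and no filter called the same 5 of the 9 genes.

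Libraries with the same replicate number did not deviate together (correlation of deviations from -0.0295 to 0.0142). Those with unlike numbers gave -0.0355 to 0.036. With 3 libraries per group these values cannot exclude a pairing, and the labels do not state one. With the replicate number as a block, 5389 genes and 4 of the 9 were called, without Slc30a2 (-1.02; edgeR adjusted p = 0.05), with 8 other zinc genes and 9 copper genes. Depth limits Slc30a2 and Slc39a14, with 13 to 42 counts per control library.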
